A study of Mus musculus with 62 samples.

Results

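The genes described are the C/EBP transcription factors Cebpa, Cebpb, Cebpd and Cebpg, 4 of the 47643 gene symbols measured in mouse liver, chosen by symbol. All 4 passed the filter on low values, which left 12160 genes to test. C/EBP proteins are basic leucine zipper factors. A basic region contacts DNA, and the adjoining zipper pairs members with each other or with other leucine zipper factors. In hepatocytes C/EBPα is known for maintaining genes of differentiated metabolism, and C/EBPβ and C/EBPδ for driving acute phase genes after interleukin-6 or interleukin-1. C/EBPγ lacks a classical activation domain and acts through its partners, among them the stress factor ATF4.

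The study followed the liver during cachexia, the wasting that some tumours cause. Female mice aged 2 months were injected with melanoma cells that are cachectic (CAC) or non-cachectic (NCAC), or had a mock injection (Con), and livers were taken 2, 4, 6 and 8 weeks later. There were 5 libraries in each of the 12 groups except CAC at 8 weeks, which had 7, or 62 in all. The sample labels give the strain as C57BL6/J, and the design text names NCI Ath/nude mice. The extraction protocol speaks of LLC cells, which no group label names. These statements could not be reconciled from the labels, and no genotype or further treatment is given. A human or mouse origin of the melanoma cells is likewise not stated. Each library was taken as 1 animal, since the labels call them biological replicates. Levels are in TPM, a share of all transcripts that allows for transcript length. Differences are on the scale of log2(TPM + 1) with their standard error, and adjusted p-values come from limma over all tested genes. A gene was called at an adjusted p under 0.05. Where the libraries of a gene are said to lie apart between groups, the share of all tested genes that did so was not counted. In whole liver, fewer cells of a type and less RNA per cell cannot be told apart.

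In the mm10 build, Cebpa lies on the plus strand of chromosome 7 at 35119293 to 35121928 and Cebpg on the minus strand of the same chromosome at 35046422 to 35056573, 62720 bases apart. Cebpb is at 167688915 to 167690418 of chromosome 2 and Cebpd at 15887286 to 15891031 of chromosome 16, both on the plus strand. Cebpa, Cebpb and Cebpd each have 1 exon, and Cebpg has 2. Their coding sequences are 359 codons for Cebpa, 296 for Cebpb, 268 for Cebpd and 150 for Cebpg, the shortest. The basic region is a part that the 4 genes share. The 60 coding bases below, 20 codons of that region in GENCODE M21, are shown because they place Cebpg apart from the other members. In each protein the window starts at a match to the pattern NNxAVxxSR, where x is any amino acid. Identity at those fixed positions follows in part from this choice. Capitals mark the 28 bases that are identical in all 4 genes.
Cebpa, chr7:35120295-35120354, plus strand: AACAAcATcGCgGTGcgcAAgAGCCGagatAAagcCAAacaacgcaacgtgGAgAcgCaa
Cebpb, chr2:167689715-167689774, plus strand: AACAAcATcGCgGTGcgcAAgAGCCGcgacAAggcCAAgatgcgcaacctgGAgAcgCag
Cebpd, chr16:15887925-15887984, plus strand: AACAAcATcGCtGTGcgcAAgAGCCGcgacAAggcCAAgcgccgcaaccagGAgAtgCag
Cebpg, chr7:35050564-35050623, minus strand: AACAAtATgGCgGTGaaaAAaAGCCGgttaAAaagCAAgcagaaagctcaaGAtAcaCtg
Cebpb and Cebpd were identical at 54 of these 60 bases, Cebpa and Cebpb at 51, and Cebpa and Cebpd at 49. Cebpg was identical to each of the other genes at only 33 or 34.

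The 250 bases before the start site of Cebpa and of Cebpb are shown because the 2 genes rank next to each other in level, and only Cebpa was called in the CAC arm. They are from RefSeq's GRCm38.p6 table, which matched 3 of the 4 symbols, and no sequence is given for Cebpd. Capitals mark TATAAA in Cebpa and TGACG or its reverse complement, the core of the cyclic AMP response element, in Cebpb.
Cebpa, chr7:35119043-35119292, plus strand: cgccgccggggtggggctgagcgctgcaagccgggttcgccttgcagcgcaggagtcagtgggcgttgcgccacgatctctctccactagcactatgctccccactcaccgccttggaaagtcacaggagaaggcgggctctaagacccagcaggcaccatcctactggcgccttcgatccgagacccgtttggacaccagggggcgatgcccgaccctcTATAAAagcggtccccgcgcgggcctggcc
Cebpb, chr2:167688665-167688914, plus strand: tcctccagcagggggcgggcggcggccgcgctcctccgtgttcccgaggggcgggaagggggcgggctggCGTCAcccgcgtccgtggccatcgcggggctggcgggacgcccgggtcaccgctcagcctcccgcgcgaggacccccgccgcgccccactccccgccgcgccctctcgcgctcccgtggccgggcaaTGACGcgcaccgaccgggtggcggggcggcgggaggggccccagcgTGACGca
Both strands were searched for 5 motifs over the same 250 bases of 32851 RefSeq promoters. TATAAA was in 12.4% of them and stood 30 to 25 bases before the start site of Cebpa. TGACG was in 17.8% of all promoters and matched 3 times in Cebpb, at 180 to 176, 53 to 49 and 7 to 3 bases before the start site. CCAAT was in 33.8% and matched 2 times in Cebpg, at 89 to 85 and 28 to 24 bases before its start. The C/EBP motif TTNNGNAA, in 36.8% of promoters, and the STAT motif TTCNNNGAA, in 7.02%, had no match in the 3 member promoters. A match describes the letters of this window only.

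The hepatocyte markers were present in every library: 10 of 10 had at least 1 TPM throughout, and their sum ranged from 111199 to 172037 TPM. Of the melanoma markers, Mlana and Tyrp1 were at 0 in all libraries, while Dct was at 4.00 to 23.8 TPM in every one, mock livers included. Pmel had 0.157 to 1.63 TPM, and Tyr at most 0.0122 TPM. Dct and Pmel were tested, and Pmel was not called in CAC against Con at 8 weeks. Dct was higher in CAC than in mock livers at 8 weeks, 15.5 ± 4.73 TPM (SD, n = 7) against 10.2 ± 3.32 TPM (SD, n = 5), a difference of 0.56 ± 0.23 (adjusted p = 0.0477) that was not called with the 20 highest genes removed, with no filter, with the replicate block or in a fit within the week. A total of 12 libraries carried transcripts of pancreas or muscle (at least 100 TPM of the pancreatic gene Ctrb1 or at least 10 TPM of the muscle gene Acta1). They fell in 6 groups: 2 at CAC 2 weeks, 3 at NCAC 4 weeks, 1 at CAC 6 weeks, and 2 each at Con 6 weeks, NCAC 8 weeks and Con 8 weeks. Calls of the 4 genes that change without them are given both ways. Leaving them out changed the number of called genes in CAC against Con from 232 to 373 at 4 weeks, from 1862 to 891 at 6 weeks and from 5005 to 4795 at 8 weeks. In CAC against NCAC the number went from 154 to 51 at 4 weeks, in NCAC against Con at 8 weeks from 22 to 0, in Con at 8 against 2 weeks from 36 to 0, and for the CAC trend from 1906 to 841. The number of reads behind each value is unknown.

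Cebpa was the most abundant member, at 75.2 to 382 TPM with a median of 210.3 over the 62 libraries. Cebpb followed at 25.1 to 119 TPM (median 55.6), then Cebpg at 14.0 to 33.5 TPM (median 23.7) and Cebpd at 1.30 to 23.4 TPM (median 4.45). This order held in 61 of 62 libraries. The exception was CAC replicate 2 at 6 weeks, where Cebpd, at 23.4 TPM, stood above Cebpg, at 22.4 TPM. Cebpg had the narrowest range and Cebpd the widest relative to its level. Of the other family genes, the myeloid member Cebpe was at 0 in 52 libraries and no higher than 0.0447 TPM. Ddit3, which encodes the stress-induced CHOP, had 2.44 to 15.7 TPM. Cebpz, a gene that shares the family's name without its leucine zipper, had 11.2 to 23.4 TPM.

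**Figure D1:**
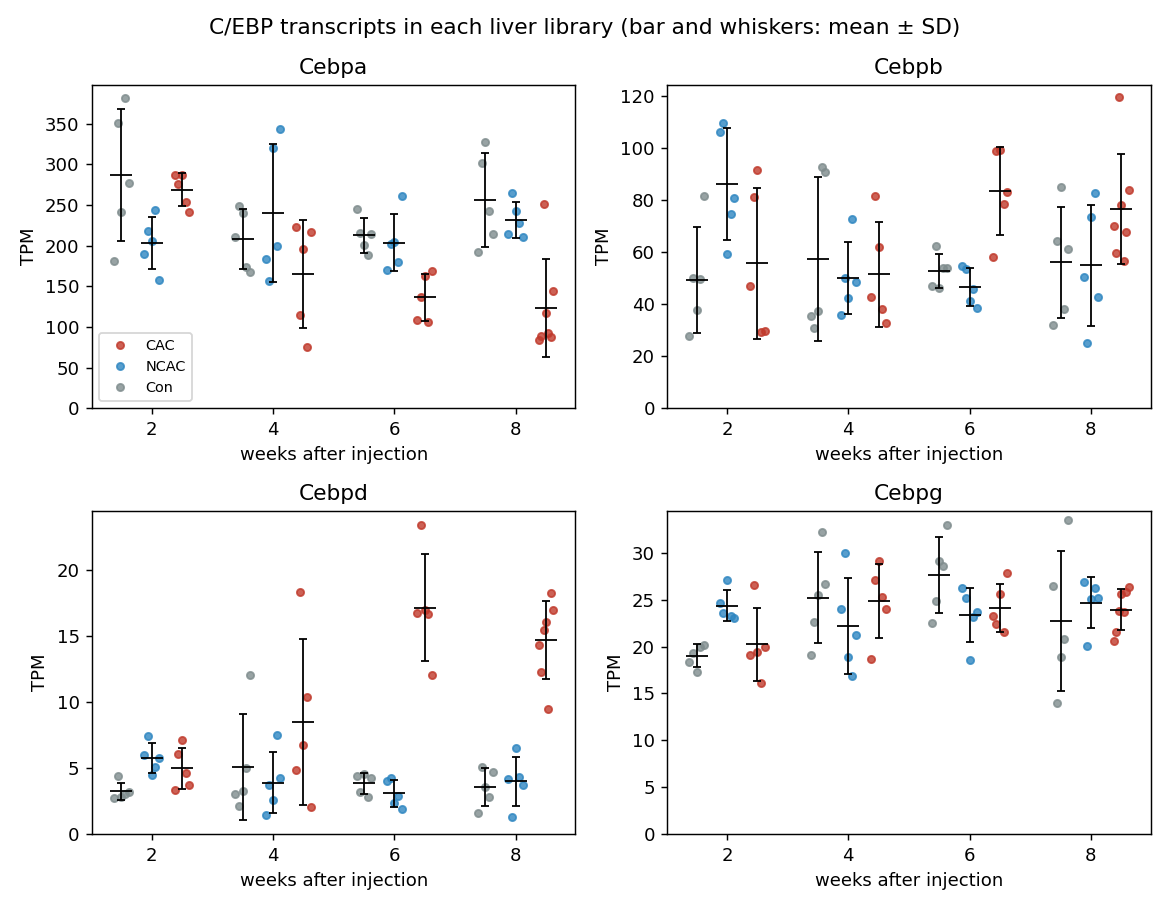
Level in TPM (y axes, linear, starting at 0) of the 4 C/EBP genes against weeks after injection, with 1 point per library for CAC, NCAC and Con, a horizontal bar at each group mean and whiskers of 1 SD. Cebpa was lowest in CAC at 6 and 8 weeks (means 137 and 124 TPM), Cebpd was highest there (17.2 and 14.7 TPM), and Cebpg stayed between 14.0 and 33.5 TPM throughout.

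Ranked by mean, the 12 groups of Cebpa ran from Con at 2 weeks, 287 ± 81.3 TPM (SD, n = 5), to CAC at 8 weeks, 124 ± 60.3 TPM (SD, n = 7). The 3 lowest groups were CAC at 4, 6 and 8 weeks. For Cebpd the 3 highest groups were CAC at 6, 8 and 4 weeks, from 17.2 ± 4.04 TPM (SD, n = 5) downwards, and NCAC at 6 weeks was lowest at 3.11 ± 1.02 TPM (SD, n = 5). Cebpb ran from 86.0 ± 21.4 TPM (SD, n = 5) in NCAC at 2 weeks to 46.7 ± 7.23 TPM (SD, n = 5) in NCAC at 6 weeks. For Cebpg the extremes were both mock groups, 27.6 ± 4.03 TPM (SD, n = 5) at 6 weeks and 19.0 ± 1.22 TPM (SD, n = 5) at 2 weeks. For each of the 4 genes, neighbouring groups in these rankings differed by no more than the larger of their SDs.

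Cebpa fell in CAC livers at 8 weeks. The 7 CAC libraries had 84.3 to 252 TPM with a median of 93.0 TPM. The 5 mock livers had 193, 302, 328, 243 and 215 TPM, and the 5 NCAC livers 214, 264, 242, 228 and 210.4 TPM. Thus 6 of 7 CAC livers lay below every mock and every NCAC liver, and CAC replicate 3, at 252 TPM, lay within both. The difference was -1.12 ± 0.22 from Con (95% interval -1.56 to -0.68, adjusted p = 5.94e-05) and -1.003 ± 0.22 from NCAC (adjusted p = 0.000225). On that scale these were 0.460 and 0.499 times the comparison level. The background was wide: 41.2% of tested genes were called in CAC against Con at 8 weeks (35.3% lower and 5.87% higher) and 48.2% in CAC against NCAC. The median difference of all genes from Con was -0.21, and it was 0.01 after median-of-ratios rescaling, which turned the split of 714 higher and 4291 lower calls into 1613 and 1600. Over these scalings and the other alternative settings Cebpa stayed between -1.29 and -0.75. With 1 library left out it ran from -1.31, without CAC replicate 3, to -1.03. It was called each time.

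Cebpd rose in the same livers. The 7 CAC libraries at 8 weeks had 9.51 to 18.3 TPM with a median of 15.5 TPM. Mock livers had 1.65, 5.09, 3.59, 2.84 and 4.73 TPM, and NCAC livers 4.15, 1.30, 6.55, 4.34 and 3.70 TPM. All 7 CAC values lay above all values of both other arms. The difference was 1.81 ± 0.30 from Con (95% interval 1.22 to 2.41, adjusted p = 3.69e-06) and 1.72 ± 0.30 from NCAC (adjusted p = 7.51e-06). CAC replicate 3, which kept a mock-like level of Cebpa, had 15.5 TPM of Cebpd, the median of its group.

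Cebpb and Cebpg were not called at 8 weeks. Cebpb had 56.7 to 119 TPM in CAC (median 70.1 TPM) against 31.9, 64.1, 84.8, 38.2 and 61.1 TPM in Con and 50.4, 25.1, 73.4, 82.8 and 42.8 TPM in NCAC. The groups overlapped, and 1 of 7 CAC livers exceeded every mock liver. Its difference from Con was 0.49 ± 0.29 (95% interval -0.09 to 1.06, adjusted p = 0.169), an interval that holds both no change and a doubling on this scale. From NCAC it was 0.55 ± 0.29 (adjusted p = 0.110). Quantile normalization gave 0.84 from Con (adjusted p = 0.0184) and 0.92 from NCAC (adjusted p = 0.0105), so the call depended on the scaling. Cebpg had 20.6 to 26.4 TPM in CAC (median 23.8 TPM) and 26.5, 14.0, 18.8, 20.8 and 33.5 TPM in Con, wider than CAC on both sides. Its difference was 0.12 ± 0.13 (95% interval -0.14 to 0.39, adjusted p = 0.475), and median-of-ratios rescaling gave 0.38 (adjusted p = 0.0224).

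At 6 weeks Cebpd had reached its highest levels. CAC livers had 16.8, 23.4, 17.0, 16.7 and 12.1 TPM, against 4.41, 3.21, 4.55, 2.82 and 4.25 TPM in Con and 4.04, 4.29, 2.39, 2.90 and 1.94 TPM in NCAC. The lowest CAC value was well above the highest of the other arms. The rise was 1.89 ± 0.32 over Con (95% interval 1.25 to 2.54, adjusted p = 2.12e-05) and 2.15 ± 0.32 over NCAC (adjusted p = 1.48e-06). In these comparisons 15.3% of tested genes were called against Con (5% higher and 10.3% lower) and 12.1% against NCAC. Cebpd was called under every alternative setting, at 1.83 to 2.12 from Con, and with any 1 library left out.

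Cebpa was lower at 6 weeks by a smaller amount. CAC livers had 109, 137, 162, 106 and 169 TPM, Con livers 245, 216, 201, 188 and 214 TPM, and NCAC livers 170.5, 202, 205, 179.6 and 261 TPM. The 5 CAC values lay below all 10 others. The difference from Con was -0.66 ± 0.24 (95% interval -1.13 to -0.18, adjusted p = 0.0495), and that from NCAC, -0.58 ± 0.24, was not called (adjusted p = 0.103). The call against Con sat at the threshold. It was lost after median-of-ratios rescaling (-0.53, adjusted p = 0.1), without the 12 libraries with pancreas or muscle transcripts (-0.63, adjusted p = 0.180) and when any 1 of 8 of the 10 libraries was left out.

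Cebpb at 6 weeks stood at 58.2, 98.8, 99.0, 78.2 and 82.9 TPM in CAC. Con had 46.8, 62.4, 46.2, 54.0 and 53.8 TPM and NCAC 54.5, 53.7, 41.1, 45.8 and 38.4 TPM. All 5 CAC livers exceeded every NCAC liver and 4 of 5 exceeded every mock liver. Over all 62 libraries the differences were 0.64 ± 0.31 from Con (adjusted p = 0.143) and 0.81 ± 0.31 from NCAC (adjusted p = 0.0783), neither called. A fit on the 6-week libraries alone, where the spread of Cebpb was smaller, called both (adjusted p = 0.00642 and 0.00153). That fit called more genes in all, 2973 against Con and 1790 against NCAC, where the fit over all weeks called 1862 and 1470. Cebpg, at 21.5 to 27.8 TPM in CAC and 22.5 to 32.9 TPM in Con, differed by -0.18 ± 0.14 (adjusted p = 0.378).

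**Figure D2:**
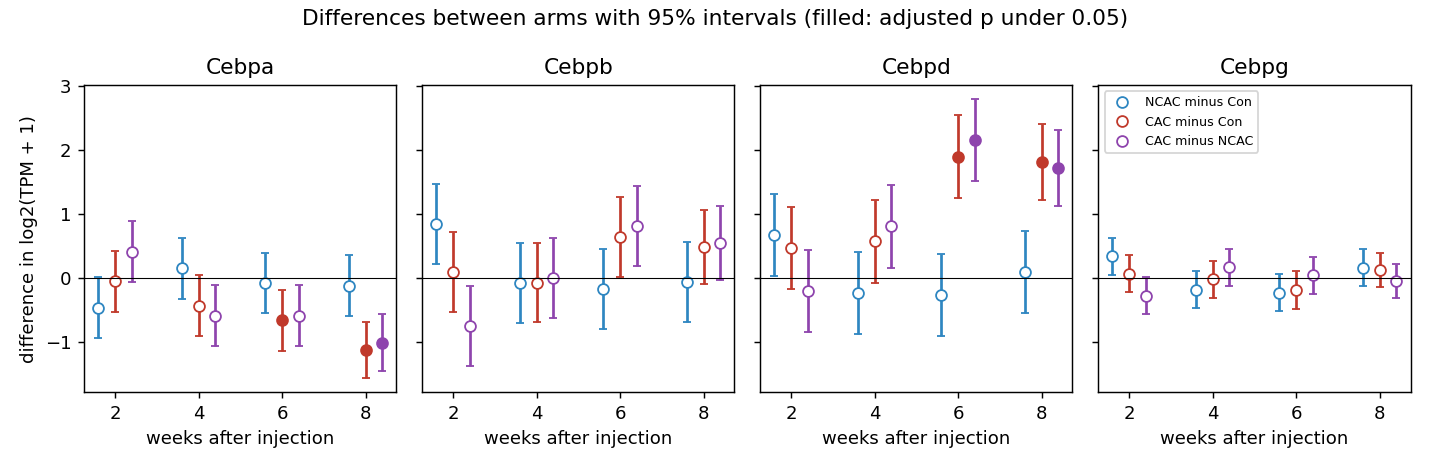
Differences between arms in log2(TPM + 1) (y axis) at each week (x axis) for the 4 genes, with 95% intervals from limma. Filled points have an adjusted p under 0.05: Cebpd at 6 and 8 weeks against both other arms, and Cebpa at 8 weeks against both and at 6 weeks against Con.

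Earlier livers were mixed. At 4 weeks 1.91% of tested genes were called in CAC against Con (1.3% higher and 0.609% lower) and 1.27% against NCAC, and no member was among them. Cebpa had 223, 115, 196, 75.2 and 217 TPM in CAC and 210.3, 249, 241, 173 and 168 TPM in Con, a difference of -0.43 ± 0.24 (adjusted p = 0.441). Cebpd had 4.86, 18.3, 6.76, 10.4 and 2.05 TPM in CAC and 3.03, 2.12, 3.26, 4.99 and 12.1 TPM in Con, a difference of 0.57 ± 0.32 (adjusted p = 0.451). CAC replicates 2 and 4 had both the lowest Cebpa (115 and 75.2 TPM) and the highest Cebpd (18.3 and 10.4 TPM) of their group. The same 2 livers had the most Orm1, an acute phase glycoprotein gene, at 9133 and 7494 TPM against 3687 to 4443 TPM in the other 3. They also had the most Lbp, which encodes the lipopolysaccharide binding protein, at 168 and 130.3 TPM against 78.6 to 88.5 TPM. Con replicate 5, with 12.1 TPM of Cebpd, had the lowest Orm1 (1494 TPM) and Lbp (33.1 TPM) of its group. These livers were singled out after their values were seen. Cebpb (-0.07 ± 0.31, adjusted p = 0.967) and Cebpg (-0.01 ± 0.14, adjusted p = 0.986) were near 0 at 4 weeks. From NCAC, Cebpa differed by -0.58 ± 0.24 (adjusted p = 0.320) and Cebpd by 0.81 ± 0.32 (adjusted p = 0.306). The Cebpd difference was called without CAC replicate 5 (1.15, adjusted p = 0.0444).

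At 2 weeks 0.00822% of tested genes, a single gene, were called in CAC against Con, and 0% in NCAC against Con or in CAC against NCAC. At an unadjusted p under 0.05 these counts were 1298, 1298 and 1770 genes. Cebpa was at 287, 276, 287, 253 and 241 TPM in CAC and at 181, 351, 241, 382 and 277 TPM in Con (-0.05 ± 0.24, adjusted p = 0.963). In NCAC livers Cebpd had 5.98, 7.45, 4.50, 5.12 and 5.81 TPM, all above the 2.77, 4.41, 2.85, 3.03 and 3.19 TPM of Con. Cebpg in NCAC, at 24.7, 23.6, 27.1, 23.3 and 23.1 TPM, also lay wholly above Con, at 18.4, 19.3, 17.2, 19.96 and 20.2 TPM. How many of all tested genes lay apart in this way was not counted. Neither Cebpd nor Cebpg was called in NCAC against Con (0.67 ± 0.32, adjusted p = 0.442, and 0.34 ± 0.14, adjusted p = 0.380). Cebpb had its highest group mean there, with 106, 109, 59.1, 74.7 and 80.6 TPM in NCAC against 27.7, 50.2, 37.7, 49.7 and 81.6 TPM in Con (0.84 ± 0.31, adjusted p = 0.337). A fit within the week called Cebpd (adjusted p = 0.0431), as 1 of 367 genes it called in NCAC against Con, 74 higher and 293 lower.

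In the NCAC arm no member was called at any week. The share of genes called in NCAC against Con was 0% at 4 and at 6 weeks and 0.181% at 8 weeks, with 934, 1094 and 1330 genes at an unadjusted p under 0.05. At 8 weeks the intervals were -0.59 to 0.36 for Cebpa and -0.55 to 0.73 for Cebpd, and neither reached the size of the CAC difference. Mock livers at 8 against 2 weeks, where 0.296% of genes were called, differed by -0.14 ± 0.24 for Cebpa and 0.06 ± 0.32 for Cebpd (adjusted p = 0.924 and 0.985).

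The change over time was tested as the linear trend of CAC minus Con, for which 15.7% of genes were called. Cebpa moved by -0.35 ± 0.10 per 2 weeks (adjusted p = 0.0153) and Cebpd by 0.54 ± 0.14 (adjusted p = 0.00570). Cebpb, at 0.19 ± 0.13 (adjusted p = 0.370), was not called, nor was Cebpg, whose interval was -0.13 to 0.12. Without the 12 libraries with pancreas or muscle transcripts both calls were lost, at -0.32 for Cebpa (adjusted p = 0.101) and 0.51 for Cebpd (adjusted p = 0.0543). For NCAC minus Con, with 0% of genes called and 1241 at an unadjusted p under 0.05, no member had a called trend.

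The balance among the members shifted with these changes, given here as a description since it rests on the same values. Cebpa made up 44.0 to 61.3% of the summed TPM of the 4 genes in CAC livers at 8 weeks and 68.4 to 79.7% in mock livers. At 6 weeks the ranges were 47.8 to 57.9% and 68.7 to 76.9%. The ratio of Cebpb to Cebpa was 0.475 to 0.831 in CAC at 8 weeks, 0.157 to 0.285 in Con and 0.0949 to 0.363 in NCAC, without overlap. That of Cebpd to Cebpa was 0.0615 to 0.208 in CAC and 0.00855 to 0.0220 in Con. At 4 weeks the ratio of Cebpb to Cebpa was 0.151 to 0.711 in CAC and overlapped that of Con, 0.124 to 0.539.

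**Figure D3:**
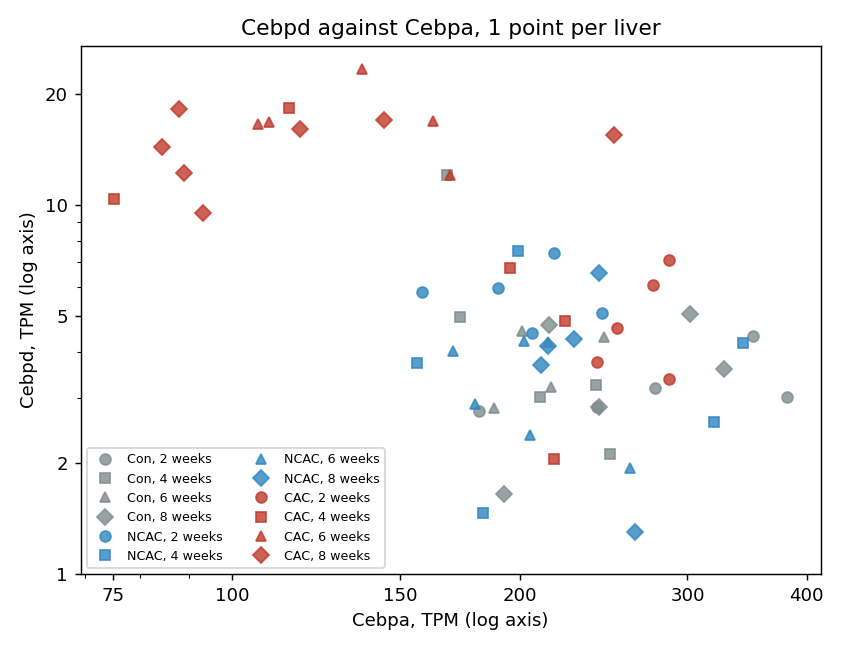
Cebpd against Cebpa in TPM (both axes logarithmic), 1 point per liver, coloured by arm and shaped by week. The CAC livers of 6 and 8 weeks and CAC replicates 2 and 4 of 4 weeks lie at Cebpd of 9.51 TPM or more, as does 1 mock liver (Con replicate 5 of 4 weeks, 12.1 TPM). CAC replicate 3 of 8 weeks lies apart from its group at 252 TPM of Cebpa.

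Within groups, Cebpb and Cebpd varied together. Deviations from the group means of log2(TPM + 1) had Pearson r = 0.69 over 62 libraries (permutation within groups, p = 1e-05, the smallest possible, 6e-05 after Benjamini-Hochberg adjustment over 6 pairs) and Spearman rho = 0.70 (permutation p = 1e-05, adjusted 6e-05). Without the 2 libraries farthest from the median r was 0.66. It was 0.59 in CAC, 0.87 in NCAC and 0.68 in Con. The other 5 pairs were not called. Cebpa and Cebpd, which moved in opposite directions between groups, had r = -0.23 within them (permutation p = 0.203, adjusted 0.305, rho = -0.15, r = -0.22 without the 2 farthest). Over the 12 group means, as a description, r was -0.88 for Cebpa with Cebpd and 0.78 for Cebpb with Cebpd.

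Genes whose group means were most like each member's were ranked by Pearson r over the 12 groups. For Cebpa they were Prrg2 (r = 0.972), Lipt1, Nfu1, Gstm4 and Hdac11 (r = 0.970). Prrg2 had 16.9 ± 4.74 TPM (SD, n = 7) in CAC at 8 weeks and 31.4 ± 6.96 TPM (SD, n = 5) in Con. For Cebpd they were Igfbp1 (r = 0.979), which encodes a secreted binding protein of insulin-like growth factors, Pole4, Rasd1, Hrg and Smoc2 (r = 0.956). Rasd1, a small GTPase gene known for induction by glucocorticoids, had r = 0.880 with Cebpd over the 62 libraries and 7.56 ± 3.30 TPM (SD, n = 7) in CAC at 8 weeks against 0.563 ± 0.387 TPM (SD, n = 5) in Con. The r values of Cebpb were lower, from Coa6 (r = 0.864) through Mrpl20, Fkbp5 and Gadd45g to Ctgf (r = 0.793). Those of Cebpg ran from BC030336 (r = 0.986) through Nus1, Prkrir and Abhd13 to Sh3glb1 (r = 0.932), and none of these 5 was called at 8 weeks. The points share libraries, groups and scaling.

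Genes on the opposite strand overlap each member, and whether the counting used strand is not stated. Spidr overlaps 1808 bases of Cebpd and had 1.98 to 2.81 TPM in CAC at 6 weeks and 2.87 to 3.56 TPM in Con. At 8 weeks the Spidr ranges overlapped, at 1.83 to 3.11 TPM in CAC and 2.33 to 3.77 TPM in Con. Tmem189 overlaps 908 bases of Cebpb and had 5.71 to 9.09 TPM in CAC and 8.01 to 12.2 TPM in Con at 6 weeks. The antisense genes that overlap Cebpa by 313 bases and Cebpg by 353 bases were not analysed here. How reads of these overlaps were assigned was not tested.

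Genes around the C/EBP factors were counted in lists covering partners, upstream signals, regulators and known targets. Of 14 tested basic leucine zipper partners 2 rose and 1 fell in the CAC arm relative to mock at 8 weeks (median difference -0.06, against -0.21 over all tested genes). They were Jun, an AP-1 subunit (0.79 ± 0.31, adjusted p = 0.0364), Nfil3, a repressor of D-box genes (0.64 ± 0.27, adjusted p = 0.0473), and Atf5, a stress factor of the ATF4 branch (-0.73 ± 0.28, adjusted p = 0.0299). Over all tested genes 5.87% were higher and 35.3% lower. With the 20 most abundant genes removed before rescaling 0 of the partners were higher and 2 lower. Cebpz was lower at 6 weeks (-0.38 ± 0.12, adjusted p = 0.0267) and not at 8 weeks (-0.06 ± 0.11, adjusted p = 0.689). Ddit3 was not called at 8 weeks (-0.24 ± 0.24, adjusted p = 0.459).

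Of 28 tested genes of cytokine and hormone signalling upstream of the factors, 10 were higher and 6 lower at 8 weeks (median 0.09). Over all tested genes 5.87% were higher and 35.3% lower at that week, with a median of -0.21. At 6 weeks 7 of the list were higher and 3 lower, and at 4 weeks 5 were higher and 0 lower. The shares of all tested genes were 5% higher and 10.3% lower at 6 weeks, and 1.3% and 0.609% at 4 weeks. Socs3, the STAT3-induced feedback inhibitor, had 31.8 to 58.5 TPM (median 45.3 TPM) in CAC at 8 weeks and 7.01, 5.20, 4.90, 5.59 and 9.85 TPM in Con (2.61 ± 0.27, adjusted p = 5.54e-11). At 4 weeks Socs3 was higher by 2.46 ± 0.29 (adjusted p = 5.55e-08). No C/EBP gene was called at that week, but the interval of the Cebpd difference from Con, -0.07 to 1.22, leaves room for a rise. Whether Socs3 changed before the C/EBP genes was not tested. The oncostatin M receptor gene Osmr rose from 0.469 to 3.11 TPM on average at 8 weeks (1.43 ± 0.15, adjusted p = 6.62e-11). The leukaemia inhibitory factor receptor Lifr (-1.42 ± 0.26, adjusted p = 2.69e-05) and the growth hormone receptor Ghr (-0.67 ± 0.15, adjusted p = 0.000434) fell. Without the 12 libraries with pancreas or muscle transcripts the count was 7 higher and 8 lower.

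Acute phase genes with known C/EBP sites were higher in 22 of 24 cases at 8 weeks, with 0 lower and a median of 2.01. The counts were 22 at 6 weeks, 19 at 4 weeks and 0 at 2 weeks. Over all tested genes 5.87% were higher at 8 weeks, 5% at 6 weeks and 1.3% at 4 weeks. The list was chosen with earlier results of these data known. The 8-week count was also 22 after median-of-ratios rescaling and without the 12 libraries. Orm1 had 6589 to 17564 TPM in CAC at 8 weeks and 2264, 1986, 1876, 1936 and 1782 TPM in Con (2.66 ± 0.20, adjusted p = 7.32e-15). Lbp had 166 to 254 TPM in CAC and 50.2, 44.5, 42.0, 39.8 and 35.2 TPM in Con (2.29 ± 0.17, adjusted p = 1.79e-15). CAC replicate 3, the liver with mock-like Cebpa, had the lowest Orm1 and the lowest Lbp of the 7, both still above every mock liver. This liver was singled out after its values were seen, and a link to its Cebpa level was not tested.

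Of 32 hepatic metabolic genes linked to C/EBP factors 5 were higher and 9 lower at 8 weeks (median -0.18), against 5.87% higher, 35.3% lower and a median of -0.21 over all tested genes. The counts were 10 higher and 6 lower after median-of-ratios rescaling. Tat (1.48 ± 0.30, adjusted p = 8.48e-05) and Sds (1.37 ± 0.28, adjusted p = 9.43e-05), enzymes of tyrosine and serine breakdown, rose. Serpina6, which encodes corticosteroid binding globulin, had 7.07 to 603 TPM (median 37.1 TPM) in CAC and 594, 385, 1184, 663 and 898 TPM in Con (-4.00 ± 0.55, adjusted p = 1.24e-07). Fabp1, whose product binds fatty acids in the hepatocyte cytosol, had 656 to 16608 TPM (median 2319 TPM) in CAC and 16218, 17958, 20254, 14813 and 15891 TPM in Con (-2.74 ± 0.38, adjusted p = 1.74e-07). In both genes the highest CAC value, within the mock range, was again replicate 3. The other 6 CAC livers had at most 94.5 TPM of Serpina6 and 3954 TPM of Fabp1. Replicate 3 was also within the mock range for genes of other lists, Mapk3 (28.4 TPM), Gsk3a (29.3 TPM) and Shmt2 (152 TPM). Of the named genes higher at 8 weeks, its Ddit4 (3.88 TPM) and Tat (1405 TPM) were within the mock range. So were its Nfil3 (15.1 TPM) and Jun (13.6 TPM). Its Socs3 (31.8 TPM), Chac1 (8.28 TPM), Sds (343 TPM) and Osmr (1.14 TPM) lay above every mock liver.

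Regulators of C/EBP protein level or activity were lower in 9 of 23 cases at 8 weeks and higher in 0, with a median of -0.20. That is close to the 35.3% lower and the median of -0.21 over all tested genes. After median-of-ratios rescaling 2 were higher and 4 lower. Mapk3 (-0.73 ± 0.12, adjusted p = 4.18e-06) and Gsk3a (-0.46 ± 0.08, adjusted p = 7.08e-06), kinases known to phosphorylate C/EBP proteins, were lower. Of 17 targets of ATF4 and C/EBPγ 3 were higher and 5 lower (median -0.19), beside the same 5.87%, 35.3% and -0.21 of all genes, and 5 were higher and 3 lower after that rescaling. Ddit4, an inhibitor of mTORC1, rose (2.20 ± 0.45, adjusted p = 0.000125), as did the glutathione-degrading Chac1 (1.55 ± 0.40, adjusted p = 0.00164). Shmt2 of mitochondrial one-carbon metabolism (-0.80 ± 0.13, adjusted p = 2.81e-06) and Gclc of glutathione synthesis (-1.72 ± 0.30, adjusted p = 1.09e-05) fell. In NCAC against Con none of the 7 lists had a called gene at any week. Of all tested genes 0% were called there at 2, 4 and 6 weeks and 0.181% at 8 weeks.

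**Figure D4:**
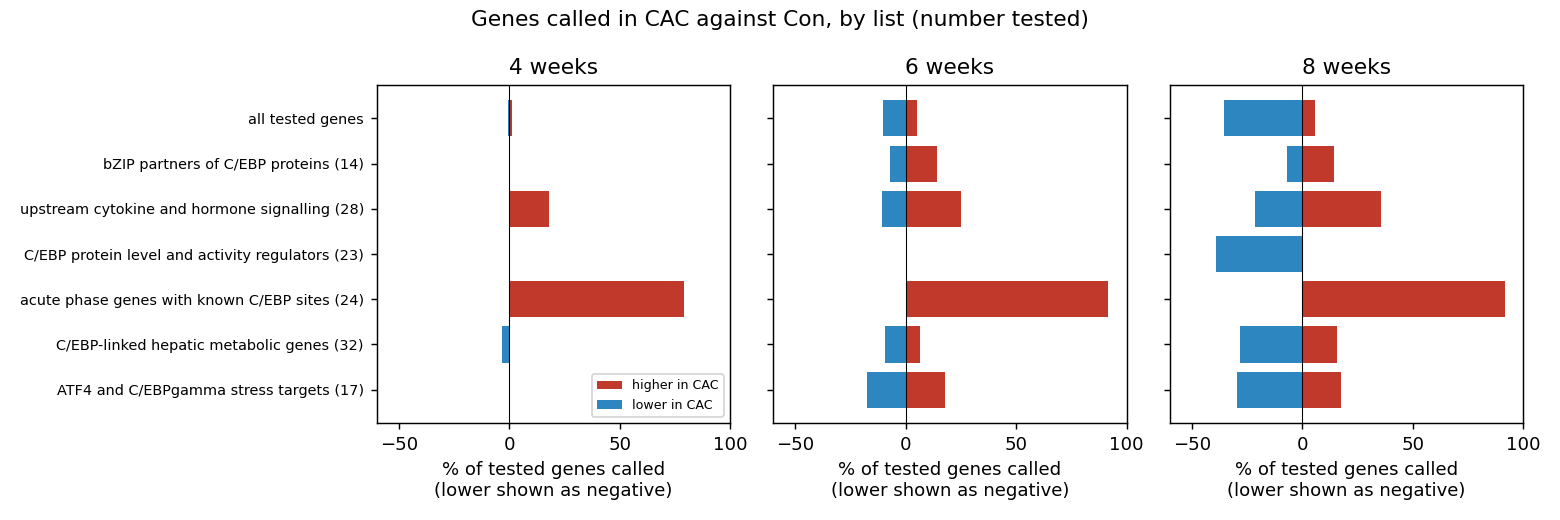
Percent of the tested genes of each list that were called in CAC against Con at 4, 6 and 8 weeks (x axis, higher to the right and lower to the left as negative values), beside all tested genes. The acute phase list had 19, 22 and 22 of 24 genes higher at the 3 weeks, beside 1.3%, 5% and 5.87% of all tested genes. The list of C/EBP regulators had 0, 0 and 9 of 23 lower, beside 0.609%, 10.3% and 35.3% of all tested genes. Its 8-week count was near that share.

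Markers of other cell types moved in the same livers at 8 weeks, when 35.3% of all tested genes were lower and 5.87% higher. Kupffer cell markers were lower in 5 of 9 cases, with sums of 179 to 674 TPM in CAC and 502 to 671 TPM in Con, and in 0 of 9 at 6 weeks. After median-of-ratios rescaling 3 of 9 were lower at 8 weeks. All 6 tested B and plasma cell markers and all 8 exocrine pancreas markers were lower, and 2 of 4 and 1 of 6 without the 12 libraries with pancreas or muscle transcripts. Sinusoidal endothelial markers were higher in 3 of 6 cases, cholangiocyte markers were higher in 2 and lower in 2 of 4, and erythroid markers were lower in 3 of 4. At 6 weeks, with 10.3% of all genes lower and 5% higher, 2 of 6 B and plasma cell, 1 of 6 stellate cell and 1 of 4 erythroid markers were lower. At that week 2 of 4 cholangiocyte, 1 of 6 endothelial and 1 of 4 neutrophil markers were higher. Of 4 tested neutrophil and myeloid precursor markers 1 was higher at 8 weeks, with sums of 10.6 to 83.7 TPM in CAC and 10.7 to 32.9 TPM in Con. At 6 weeks those sums were 16.0 to 40.6 TPM in CAC and 8.47 to 19.8 TPM in Con. The myeloid gene Mpo never exceeded 0.155 TPM, and Cebpe stayed at or near 0 as given above. The part of these cells in the levels of Cebpa and Cebpd was not tested.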

How the data were processed

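Liver RNA was measured in 62 libraries of 12 groups. Per the labels' protocols, libraries were made with a stranded mRNA kit and sequenced on a NovaSeq instrument. The deposited values are TPM, in 1 table with a row for each of 47643 symbols. Each library sums to 1000000, so depth cannot be read from it. The genome build was mm10, per the submitters' processing notes. Not given in the sources used here are the aligner, the quantifier, their use of strand and the depth, and no count model was used. Columns were matched to groups by name, with 0 left over.

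A gene was tested if 5 or more libraries had 1 TPM or more of it, which 12160 did. Values of log2(TPM + 1) from all 62 libraries were fitted in limma 3.58.1 (R 4.3.3) by group means, 12 in all, with trended empirical Bayes moderation. P-values were Benjamini-Hochberg adjusted over all tested genes in each of 15 comparisons. The procedure was tested on simulated data. Correlations of deviations from group means used 100000 permutations within groups. Figures used Python 3.11.15 and matplotlib 3.10.9.

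The members and the gene lists, written from general knowledge, were chosen with earlier results of these data known. Named genes were the 4 members, Cebpe, Cebpz and Ddit3, up to 2 higher and 2 lower genes per list with the smallest adjusted p at 8 weeks, and the 5 genes most like each member with at least 5 TPM in a group mean. Symbols that start with LOC or with Gm and a number, or that contain Rik, were left out of that ranking by likeness. Cop1 and G6pc1 of the lists had no values under those symbols, and some genes are in more than 1 list. Opposite-strand overlaps were added after the members' values were seen. Alternatives were an offset of 0.1, no filter, a mean filter of 5 TPM, median-of-ratios, quantile and 20-highest-removed scalings, removal of the acute phase list, robust moderation, a fit within each week, the replicate number as a block, removal of 12 libraries with pancreas or muscle transcripts, and each library left out. Replicate numbers are shared between groups, but same-numbered libraries did not deviate together, so they were not treated as pairs.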

Additional observations from a re-analysis of the deposited data

Results flagged for a closer look

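Of 48 groups of member values checked for a library far from the others, 4 were picked out, and chance picks out about 1 group in 20. Cebpa in CAC replicate 3 at 8 weeks, at 252 TPM, lay far above the other 6, at 84.3 to 144 TPM. Cebpd in Con replicate 5 at 4 weeks, at 12.1 TPM, lay far above the others, at 2.12 to 4.99 TPM, and Cebpd in Con replicate 2 at 2 weeks, at 4.41 TPM, above 2.77 to 3.19 TPM. Cebpg in NCAC replicate 2 at 8 weeks, at 20.02 TPM, lay below the others, at 25.1 to 26.9 TPM.

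The difference between CAC and Con had a called trend over the weeks for Cebpa and Cebpd, as for 15.7% of all tested genes. The tested linear trend was -0.35 per 2 weeks for Cebpa and 0.54 per 2 weeks for Cebpd. Both calls were lost without the 12 libraries with pancreas or muscle transcripts (limma adjusted p = 0.101 and 0.0543).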

How the results depend on the processing

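Over 66 member results and 1524 alternative values, the call was kept in 1489, lost in 18 and gained in 17. Of the 10 called results 0 changed sign, and 78 alternative values of uncalled results did. Cebpd at 6 and 8 weeks and Cebpa at 8 weeks, against Con and NCAC, kept their calls throughout. The correlations were recomputed only after median-of-ratios rescaling and without the 12 libraries with pancreas or muscle transcripts. That of Cebpb with Cebpd kept its call in both.

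Cebpa in CAC against Con at 6 weeks lost its call with an offset of 0.1 (-0.66, adjusted p = 0.0507), no filter (-0.66, 0.0812), median-of-ratios (-0.53, 0.1), quantile normalization (-0.52, 0.0671), the acute phase list removed (-0.50, 0.134) and without the other-tissue libraries (-0.63, 0.180). With 1 library left out it ran from -0.74 to -0.57 (adjusted p 0.0352 to 0.141), and 8 of 10 omissions ended the call. The Cebpa trend lost its call with quantile normalization (-0.23, 0.0702), the acute phase list removed (-0.27, 0.0656) and without the other-tissue libraries (-0.32, 0.101), and the Cebpd trend without those libraries (0.51, 0.0543).

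Calls gained at 8 weeks by rescaling with median-of-ratios, quantiles and the acute phase list removed were 0.38, 0.39 and 0.36 for Cebpg against Con and 0.85, 0.92 and 0.79 for Cebpb against NCAC. Quantile normalization also gave 0.84 for Cebpb against Con. Cebpb against NCAC at 8 weeks ran from 0.30 to 0.72 with 1 library left out and was called without NCAC replicate 4. At 6 weeks Cebpb against NCAC was called with quantile normalization (0.91), the acute phase list removed (0.96) and within the week (0.81), Cebpb against Con within the week (0.64), and Cebpa against NCAC with the 20 highest genes removed (-0.75) and within the week (-0.58). Cebpd in NCAC against Con at 2 weeks was called within the week (0.67). Cebpd in CAC against NCAC at 4 weeks ran from 0.48 to 1.15 with 1 library left out and was called without CAC replicate 5. The correlation of Cebpa with Cebpg was called after median-of-ratios (r = -0.41). The fewer libraries or genes tested are part of some alternatives, and otherwise the cause was not tested.

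Same-numbered libraries correlated at -0.37 to 0.36, and in no comparison were all 5 pairs over 0.1. With the replicate block, 4142 genes were called in CAC against Con at 8 weeks against 5005 without, 1833 against 1862 at 6 weeks, and no member call changed.

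The number of genes called in CAC against Con ranged over the alternatives from 3082 to 7657 at 8 weeks, 891 to 4606 at 6 weeks (1862 as reported), 99 to 407 at 4 weeks (232) and 0 to 721 at 2 weeks (1). Against NCAC it ranged from 3021 to 7984 at 8 weeks (5863), 957 to 2757 at 6 weeks (1470), 51 to 181 at 4 weeks (154) and 0 to 935 at 2 weeks (0). In NCAC against Con it ranged from 0 to 367 at 2 weeks (0) and 0 to 182 at 8 weeks (22), in Con at 8 against 2 weeks from 0 to 291 (36), and for the CAC trend from 841 to 3789 (1906). At 6 weeks the split of 608 higher and 1254 lower calls against Con became 1027 and 691 after median-of-ratios. Without read counts, the part of depth in the spread of low genes such as Cebpd is unknown.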
